A study of Mus musculus with 16 samples.

Results

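The ADAMTS proteases are secreted zinc metalloproteases with thrombospondin repeats that cut proteins of the extracellular matrix. The 10 genes described here are Adamts1, Adamts2, Adamts3, Adamts4, Adamts5, Adamts7, Adamts9, Adamts10, Adamts12 and Adamts15. They were chosen by name, as ADAMTS proteases of matrix turnover, with no measured value in the rule, from the 20992 genes of the deposited table. All 10 passed the filter on low values, and none of them passed an adjusted p of 0.05 in any of the 8 comparisons made with limma. Their standard errors ran from 0.23 to 0.64 on the log2 scale, so a difference that missed the threshold does not show that groups were alike.

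RNA of mouse aortic valves was sequenced in 4 groups on the C57BL/6J background. HC/HT mice carried human renin and human angiotensinogen transgenes and lacked ApoE, and 3 libraries of them were used. HC mice, the hypercholesterolaemia model, were ApoE knockouts without the transgenes. HT mice, the hypertension model, carried both human transgenes with ApoE intact, and CON mice had neither alteration. HC, HT and CON had 4 libraries each. Females and males numbered 2 and 1 in HC/HT, 3 and 1 in HC, 2 and 2 in HT, and 1 and 3 in CON. Age, diet, the promoters of the transgenes and whether a library held the valves of 1 mouse or of several were not stated in the labels. The p-values therefore measure the spread between these libraries.

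In a valve leaflet, interstitial cells lay down collagen, proteoglycans such as versican and elastic fibres, and secreted proteases cut these proteins again. ADAMTS1, ADAMTS4, ADAMTS5, ADAMTS9 and ADAMTS15 cleave the large proteoglycans versican and aggrecan, and in mice Adamts5 and Adamts9 are known from loss-of-function studies to be needed for the normal sculpting of heart valves. ADAMTS2 and ADAMTS3 are procollagen N-proteinases, which trim the amino end of fibrillar procollagens so that fibres can form, and ADAMTS3 also takes part in activating the lymphatic growth factor VEGF-C. ADAMTS7 and ADAMTS12 cut cartilage oligomeric matrix protein, and ADAMTS10 binds fibrillin microfibrils.

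The deposited values are counts that the authors normalised and rounded to integers. They were multiplied here by a common factor, 0.0979537, and are called units below. The deposited totals were nearly equal in all libraries, so the sequencing depth of a library is unknown and no counting error can be given. The 4 most abundant genes took 50.9 ± 4.87% of a library in HC/HT, 41.4 ± 8.86% in HC, 54.4 ± 9.63% in HT and 41.6 ± 11.2% in CON (SD, n = 3, 4, 4 and 4). Apoe lay between 5.98 and 9.80 units in HC/HT and between 2.15 and 12.3 in HC, against 56.6 to 609 in HT and 398 to 1014 in CON, as the labels have it. Endothelial markers summed to 502 to 1106 units and interstitial and fibroblast markers to 2828 to 11434 units over the 15 libraries. All 6 markers of both lists were above 0 in every group. Smooth muscle markers ranged from 70.6 to 127 units in HC/HT, 89.2 to 565 in HC, 119 to 1231 in HT and 178 to 2591 in CON. Macrophage markers ranged from 1530 to 2217 units in HC/HT, 1682 to 3269 in HC, 119 to 1122 in HT and 713 to 1232 in CON. The part of these markers in the results below was not tested.

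Promoter windows were on hand for Adamts1, Adamts2, Adamts3, Adamts9 and Adamts12, 5 of the 10 members. Shown are those of Adamts1, the most abundant member per transcript length, of Adamts9, another versican protease, and of Adamts2, the procollagen protease with the most motif matches. Each runs from 250 bases before to 50 bases after a start that RefSeq gives on GRCm38.p6 (mm10), 5′ to 3′ on the gene's strand, with the motif matches in capitals. The Adamts9 window lies inside the annotated span of the gene, which ends at 92944450, so its start is not the outermost one. The same holds for the Adamts3 window, which is not shown.
Adamts1, chr16:85803064-85803363, minus strand: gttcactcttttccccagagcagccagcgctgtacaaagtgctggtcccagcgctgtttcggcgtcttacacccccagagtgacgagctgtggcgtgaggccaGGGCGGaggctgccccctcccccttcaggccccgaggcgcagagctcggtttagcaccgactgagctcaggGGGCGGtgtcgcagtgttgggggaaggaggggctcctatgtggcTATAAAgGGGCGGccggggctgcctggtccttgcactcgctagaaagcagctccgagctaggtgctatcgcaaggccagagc
Adamts2, chr11:50601835-50602134, plus strand: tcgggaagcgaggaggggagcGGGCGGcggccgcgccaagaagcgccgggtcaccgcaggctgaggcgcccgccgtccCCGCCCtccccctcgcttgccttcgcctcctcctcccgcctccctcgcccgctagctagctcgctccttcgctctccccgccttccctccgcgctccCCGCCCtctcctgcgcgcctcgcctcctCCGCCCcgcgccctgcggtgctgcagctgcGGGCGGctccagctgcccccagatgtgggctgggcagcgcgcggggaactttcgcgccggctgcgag
Adamts9, chr6:92943485-92943784, minus strand: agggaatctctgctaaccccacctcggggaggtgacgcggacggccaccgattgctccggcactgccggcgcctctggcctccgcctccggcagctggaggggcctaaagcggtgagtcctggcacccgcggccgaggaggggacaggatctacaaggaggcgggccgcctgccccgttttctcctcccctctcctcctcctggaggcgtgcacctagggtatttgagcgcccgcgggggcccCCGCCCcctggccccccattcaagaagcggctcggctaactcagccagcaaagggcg

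The motifs searched on both strands were the TATA box (TATAAA), the GC box (GGGCGG), the CCAAT box (CCAAT), the AP-1 site (TGANTCA) and the CRE (TGACGTCA). The Adamts1 window held a TATA box whose first base lay 32 bases before the start and GC boxes 147, 76 and 25 bases before it. The Adamts2 window held 5 GC boxes, the Adamts9 window 1 GC box on the opposite strand at 7 bases before the start, the Adamts3 window 1 GC box and the Adamts12 window no match. None of the matches overlapped. Of all 32851 promoter windows of the same length, 13.6% held the TATA box, 35.7% the GC box, 37.4% the CCAAT box, 7.81% the AP-1 site and 1.79% the CRE. A match describes the letters of the window and nothing more.

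The members differed widely in level in control valves. Per kb of the longest annotated transcript, Adamts1 was highest in CON at 21.3 ± 9.09 units per kb, followed by Adamts10 at 17.6 ± 3.42 (SD, n = 4, as for all levels per kb here). Adamts2, Adamts5 and Adamts15 followed at 9.15 ± 3.78, 7.46 ± 2.92 and 5.97 ± 2.35 units per kb. Adamts12 had 2.66 ± 0.789, Adamts9 1.69 ± 0.727, Adamts3 1.23 ± 0.515 and Adamts7 0.865 ± 0.188 units per kb. Adamts4, an aggrecanase best known from cartilage, was lowest at 0.290 ± 0.257. In this order the CON libraries of neighbours overlapped, except that Adamts10 lay at 13.9 to 22.2 units per kb above Adamts2 at 4.38 to 13.4, and Adamts15 at 3.64 to 8.36 above Adamts12 at 1.95 to 3.49. The lower members thus formed a run from Adamts12 down to Adamts4 in which each gene shared part of its range with the next.

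**Figure D1:**
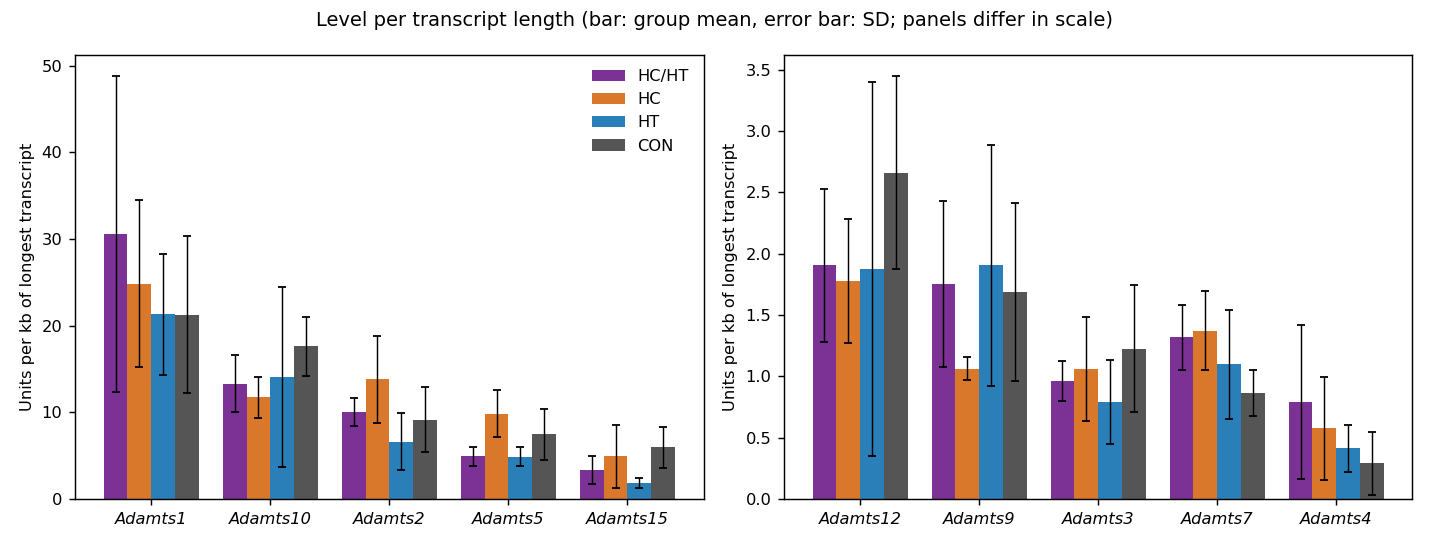
Levels of the 10 members in units per kb of the longest annotated transcript, in the order of their CON means, for HC/HT (n = 3), HC, HT and CON (n = 4 each); bars are group means and error bars SD, and the right panel has a smaller scale. Adamts1 and Adamts10 stand highest in CON and Adamts4 lowest, and the error bars of most groups overlap within each gene.

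Among the proteoglycan-cleaving members, Adamts15 lay farthest from control. Adamts15 (chr9:30899155-30922452) had 9.21, 21.2 and 28.3 units in the HC/HT libraries and 59.6, 28.4, 13.2 and 15.0 in the HC libraries. It had 11.1, 7.15, 10.7 and 15.2 units in the HT libraries, against 49.6, 45.0, 21.5 and 25.4 in the CON libraries. All 4 HT libraries lay below all 4 CON libraries, while HC/HT and HC overlapped with CON. Means were 19.6 ± 9.65 units in HC/HT, 29.0 ± 21.4 in HC and 11.0 ± 3.29 in HT, against 35.4 ± 14.0 in CON (SD, n = 3, 4, 4 and 4). On the scale of log2(value + 1), which understates the change of low genes, the fitted difference of HT from CON was -1.60 ± 0.44 (SE), with an unadjusted p of 0.00116 and an adjusted p of 0.351 over all genes by limma. It did not pass. Of all 15004 genes tested, 0% passed in HT against CON, 4.15% had all HT libraries below all CON libraries, and the median gene differed by -0.42, so that Adamts15 lay -1.19 from that median. After median-of-ratios scaling, which moved the median gene to -0.01, the Adamts15 difference was -1.16 ± 0.42 (adjusted p = 0.959, limma), and the HT libraries again lay below the CON libraries, as for 1.35% of genes. Fitted on the HT and CON libraries alone, the difference was -1.55 with an adjusted p of 0.0169, and 208 genes passed. Marker lists also differed between HT and CON. Melanocyte markers summed to 21.8 to 78.0 units in HT, against 82.6 to 192 in CON, without overlap (33.1 to 84.3 against 77.9 to 148 after median-of-ratios scaling, with overlap). All 6 interstitial and fibroblast markers had lower fitted values in HT, as had 86.7% of all genes. Of the 6, 3 had an unadjusted p under 0.05 by limma (12.8% of genes). The median log2 difference of these markers was -0.83 (-0.35 after that scaling). All 6 macrophage markers were also lower by value, with a median of -1.40 (-0.96 after that scaling). Of 6 endothelial markers 5 were lower, and of 6 smooth muscle markers 5. Their medians were -0.52 and -0.40 (-0.06 and 0.07 after that scaling). Cardiomyocyte markers summed to 88.6 to 5164 units in HT, against 217 to 1755 in CON. The part of these markers in the Adamts15 difference was not tested. In these bulk samples, fewer cells of a type and less RNA per cell cannot be told apart.

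Adamts5 (chr16:85858157-85901125), an aggrecanase and versicanase, had lower means in both transgenic groups than in HC and CON. It had 39.1, 59.8 and 60.3 units in the HC/HT libraries and 93.6, 110, 145 and 75.3 in the HC libraries. It had 47.8, 52.2, 40.7 and 68.5 units in the HT libraries, against 74.2, 120, 83.9 and 43.7 in the CON libraries. All 3 HC/HT libraries lay below all 4 HC libraries, and the HT libraries lay below 3 of the 4 CON libraries. Means were 53.1 ± 12.1 units in HC/HT, 106 ± 29.6 in HC and 52.3 ± 11.8 in HT, against 80.5 ± 31.5 in CON. For HT against CON, the fitted log2 difference was -0.62 ± 0.32 (SE; adjusted p = 0.398, limma) and -0.15 ± 0.25 after median-of-ratios scaling. For HC/HT against HC, the fitted log2 difference was -0.95 ± 0.34 (SE; unadjusted p = 0.00859, adjusted p = 0.984, limma). Of all genes, 0% passed in that comparison, 4.53% had all HC/HT libraries below all HC libraries, and the median gene differed by -0.18. After median-of-ratios scaling the difference was -0.76 ± 0.26 (adjusted p = 0.845, limma), and the groups still did not overlap, as for 3.35% of genes. The interstitial and fibroblast markers summed to 3477 to 5126 units in HC/HT, against 3687 to 11434 in HC. All 6 had lower fitted values in HC/HT, 0 with an unadjusted p under 0.05. Their median log2 difference was -0.85 (-0.66 after median-of-ratios scaling). All 6 smooth muscle, all 6 cardiomyocyte and all 6 macrophage markers were lower too, as were 69.4% of all genes. Their medians were -0.79, -1.20 and -0.44 (-0.66, -1.02 and -0.24 after that scaling). Of 6 endothelial markers 4 were lower, and of 5 melanocyte markers 2. The part of these lists in the Adamts5 difference was not tested.

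**Figure D2:**
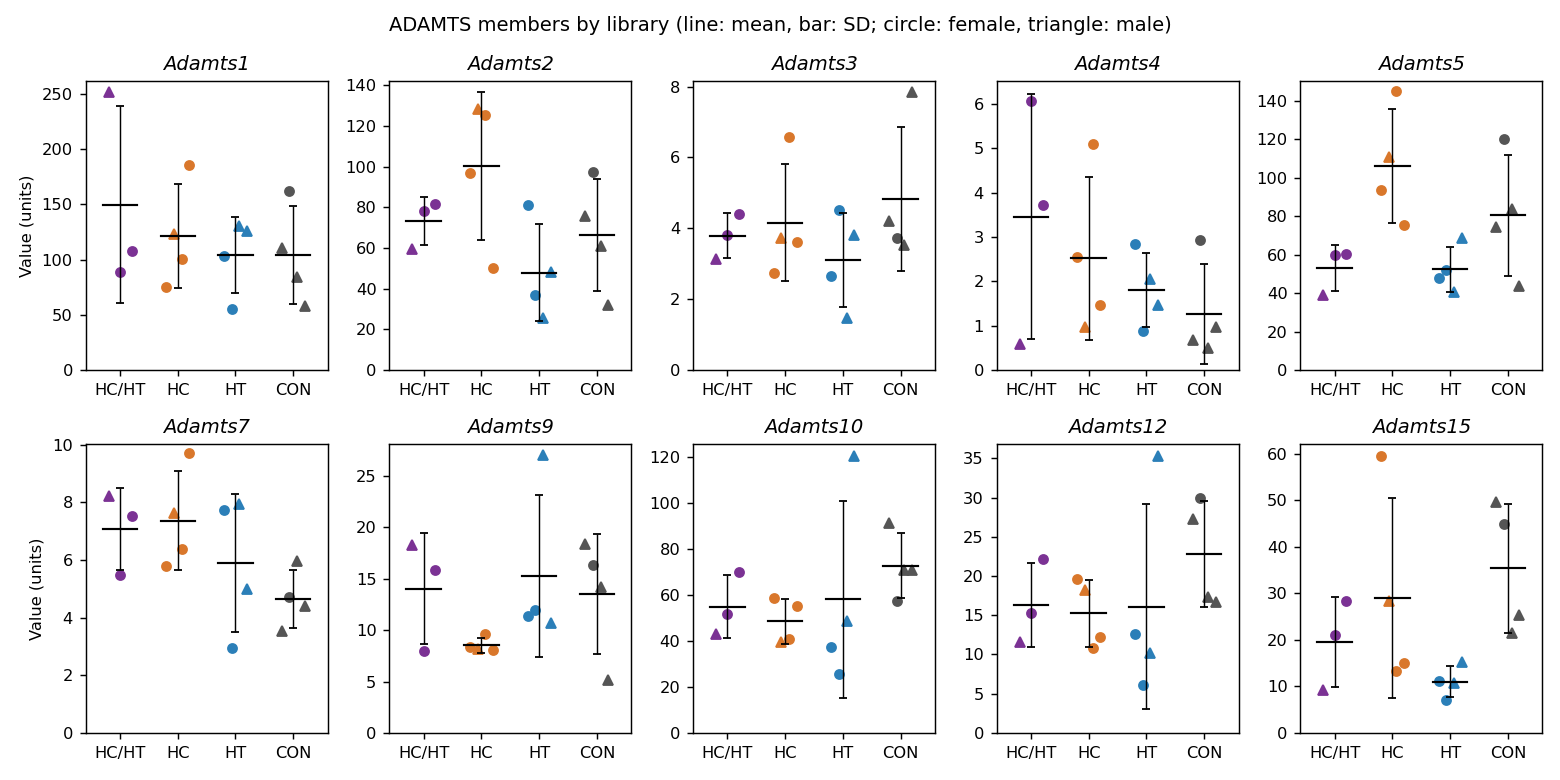
Value in units of each of the 10 members in every library, by group from HC/HT to CON; circles are females, triangles males, lines the group mean and bars the SD. The HT libraries of Adamts15, at 7.15 to 15.2 units, lie below its CON libraries at 21.5 to 49.6, and the HC/HT libraries of Adamts5, at 39.1 to 60.3, below its HC libraries at 75.3 to 145.

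Adamts1 (chr16:85793827-85803113), which cleaves versican and aggrecan and also restrains angiogenesis, lies beside Adamts5 on chromosome 16, with 55043 bases between their annotated spans. The neighbours did not share a pattern over the groups. Adamts1 had 252, 88.6 and 108 units in the HC/HT libraries, 75.3, 123, 101 and 185 in the HC libraries and 104, 55.6, 130 and 126 in the HT libraries, against 110, 163, 84.6 and 58.4 in the CON libraries. Every pair of groups overlapped, and the 252 units of 1 HC/HT library, the only male of that group, stood above the rest. The means were 149 ± 89.1 units in HC/HT, 121 ± 47.0 in HC and 104 ± 34.3 in HT, against 104 ± 44.4 in CON. The fitted log2 difference from CON was 0.60 ± 0.42 in HC/HT (adjusted p = 0.645, limma).

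Adamts9 (chr6:92772699-92944450), a versican protease, had 18.3, 7.93 and 15.9 units in the HC/HT libraries and 8.33, 8.13, 9.60 and 8.03 in the HC libraries. It had 11.4, 11.95, 27.0 and 10.7 units in the HT libraries, against 18.4, 16.4, 14.2 and 5.19 in the CON libraries. The 4 HC libraries lay close together and below 3 of the 4 CON libraries, and HT replicate 3 stood above the other HT libraries. Fitted log2 differences from CON were 0.17 in HC/HT, -0.41 in HC and 0.22 in HT, none of which passed. After median-of-ratios scaling they were 0.36, -0.38 and 0.68, and none passed. Adamts4 (chr1:171250129-171262267) averaged 3.46 ± 2.75 units in HC/HT, 2.52 ± 1.83 in HC and 1.81 ± 0.84 in HT, against 1.27 ± 1.13 in CON. Its values ran from 0.490 to 6.07 over all 15 libraries. Every group overlapped with every other.

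The procollagen proteases differed in level and in the order of the groups. Adamts2 (chr11:50602085-50807573), the principal procollagen I protease, had 59.8, 78.1 and 81.6 units in the HC/HT libraries and 96.9, 128, 125 and 50.3 in the HC libraries. It had 81.0, 36.9, 25.8 and 48.1 units in the HT libraries, against 75.9, 97.2, 61.1 and 31.8 in the CON libraries. Of the 4 HC libraries 3 stood at the top of all 15 or near it, 1 was among the lower values, and every group overlapped with CON. Adamts3 (chr5:89673841-89883668) averaged 3.79 ± 0.64 units in HC/HT, 4.16 ± 1.66 in HC and 3.11 ± 1.34 in HT, against 4.82 ± 2.03 in CON. Its fitted log2 differences from CON were -0.29, -0.23 and -0.54 in HC/HT, HC and HT, beside -0.20, -0.02 and -0.42 for the median gene, and none passed. After median-of-ratios scaling they were -0.15, -0.24 and -0.20.

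The remaining members, Adamts7, Adamts10 and Adamts12, are the proteases of cartilage oligomeric matrix protein and the fibrillin-binding member. Adamts7 (chr9:90162904-90200102) had 8.23, 5.49 and 7.54 units in HC/HT, 5.78, 7.64, 6.37 and 9.70 in HC and 7.74, 2.94, 7.93 and 5.00 in HT, against 3.53, 4.70, 5.98 and 4.41 in CON. In HC/HT the lowest value lay just under the highest CON value. The log2 difference of HC/HT from CON was 0.59 ± 0.42 (adjusted p = 0.655, limma), and after median-of-ratios scaling it was 0.76 ± 0.38 (adjusted p = 0.397) with groups that did not overlap, as for 6.23% of genes on that scale. Adamts10 (chr17:33523646-33553782) averaged 54.9 ± 13.7 units in HC/HT, 48.4 ± 9.70 in HC and 58.0 ± 42.7 in HT, against 72.6 ± 14.1 in CON. Adamts12 (chr15:11064773-11349232) averaged 16.3 ± 5.37 units in HC/HT, 15.2 ± 4.31 in HC and 16.1 ± 13.1 in HT, against 22.8 ± 6.77 in CON. Both genes were highest in CON by mean, and HT replicate 4, with 120 units of Adamts10 and 35.3 of Adamts12, was the highest of all libraries for each.

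As a list, the members were set beside all genes tested in each comparison with CON. In HC/HT against CON, 0 of 10 members passed an adjusted p of 0.05 (0.467% of genes did), and 0 had an unadjusted p under 0.05 (11.4% of genes). The members' median log2 difference there was -0.09, beside -0.20 for all genes, with 5 of 10 members negative against 66.8% of genes. In HC against CON, 0 of 10 passed (0.167% of genes), 0 had an unadjusted p under 0.05 (4.01% of genes), and the medians were -0.03 for the members and -0.02 for all genes. In HT against CON, 0 of 10 passed (0% of genes) and 1, Adamts15, had an unadjusted p under 0.05 (12.8% of genes). The medians were -0.50 for the members and -0.42 for all genes, with 6 of 10 members negative against 86.7% of genes. These 3 comparisons share the CON libraries.

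**Figure D3:**
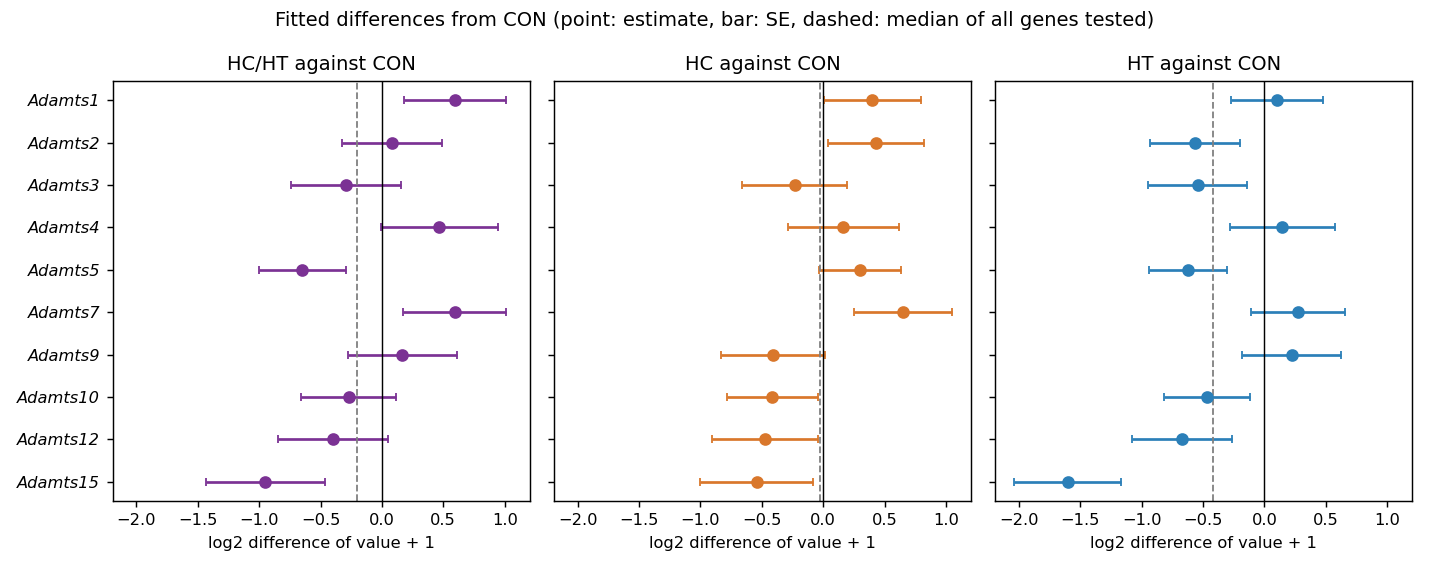
Fitted log2 differences of value + 1 from CON for each member in HC/HT, HC and HT; points are estimates, bars SE, and dashed lines the median of all genes tested, at -0.20, -0.02 and -0.42. Adamts15 in HT, at -1.60, is the member farthest from the dashed line.

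Between the altered groups the members were counted in the same way. In HC/HT against HC, 0 of 10 members passed (0% of genes) and 1, Adamts5, had an unadjusted p under 0.05 (4.41% of genes). The members' median there was 0.01, beside -0.18 for all genes. In HC/HT against HT, 0 of 10 passed (0.373% of genes), 0 had an unadjusted p under 0.05 (8.71% of genes), and the members' median was 0.30 beside 0.21 for all genes. For the interaction of both alterations, 0 of 10 passed (0% of genes) and 0 had an unadjusted p under 0.05 (1.38% of genes). The largest interaction among the members was that of Adamts15, at 1.19 ± 0.64 (SE; unadjusted p = 0.0741, adjusted p = 1.00, limma).

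With groups pooled, 7 ApoE knockout libraries (HC/HT and HC) were set against 8 with ApoE intact (HT and CON). Of the members 0 of 10 passed (1.47% of genes), and 0 had an unadjusted p under 0.05 (9.84% of genes). Adamts2 came nearest, with a log2 difference of 0.54 ± 0.28 (SE; unadjusted p = 0.0667, adjusted p = 0.569, limma). After median-of-ratios scaling 0 of 10 passed and 1, Adamts2, had an unadjusted p under 0.05 (1984 of 15004 genes). Its difference was then 0.41 ± 0.19 (SE; unadjusted p = 0.0428, adjusted p = 0.355, limma). The submitters' sample numbers ran from 1 to 7 in the knockout libraries and from 9 to 17 in the intact ones, so the numbering and the ApoE genotype cannot be told apart. What the numbers mark was not stated.

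Set against 8 non-transgenic libraries (HC and CON), the 7 renin/angiotensinogen transgenic libraries (HC/HT and HT) gave the closest approach to the threshold. Adamts5 had a median of 52.2 units (39.1 to 68.5) in transgenic libraries, against 88.8 (43.7 to 145) in non-transgenic ones. The log2 difference was -0.78 ± 0.23 (SE; unadjusted p = 0.00193, adjusted p = 0.130, limma), or -0.49 from the median gene. Adamts15 had a median of 11.1 units (7.15 to 28.3) in transgenic libraries, against 26.9 (13.2 to 59.6) in non-transgenic ones, with a log2 difference of -1.01 ± 0.32 (SE; unadjusted p = 0.00393, adjusted p = 0.155). For both genes the ranges overlapped. Thus 0 of 10 members passed (0.0133% of genes, 2 in number), while 2 had an unadjusted p under 0.05 (16.7% of genes), and the median was -0.23 for the members and -0.30 for all genes. After median-of-ratios scaling 0 of 10 passed and 3 had an unadjusted p under 0.05, Adamts5, Adamts9 and Adamts15 (9.13% of genes), with 6 of 10 members positive and medians of 0.09 for the members and -0.01 for all genes. Without HC replicate 4, 2 members passed by limma, Adamts5 at -0.88 (adjusted p = 0.038) and Adamts15 at -1.13 (adjusted p = 0.0451). In that fit 519 of 14919 genes passed. No member passed with any other single library left out.

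The scaling bore on these values. After median-of-ratios scaling, Adamts5 differed by -0.45 ± 0.18 (adjusted p = 0.450, limma) and Adamts15 by -0.69 ± 0.30 (adjusted p = 0.509) between transgenic and non-transgenic libraries. Adamts9 differed by 0.40 ± 0.29 (adjusted p = 0.454) in units and by 0.71 ± 0.27 (adjusted p = 0.419) after that scaling. Within the sexes, the mean log2 difference of Adamts5 was -0.93 in females (4 against 4) and -0.62 in males (3 against 4), and that of Adamts15 was -0.83 in females and -1.30 in males. After median-of-ratios scaling these were -0.52 and -0.34 for Adamts5 and -0.44 and -1.03 for Adamts15. The direction was the same in both sexes for these genes under both scalings. Both genes were picked by the pooled difference of these same libraries, so the shared direction is no separate evidence. The non-transgenic females were 3 HC and 1 CON and the non-transgenic males 1 HC and 3 CON, so sex and group are not independent here. For Adamts1 the mean log2 difference was -0.51 in females and 0.82 in males, or -0.10 and 1.10 after median-of-ratios scaling. That difference between the sexes was not tested. Interstitial and fibroblast markers summed to 2828 to 8845 units in transgenic libraries, against 3687 to 11434 in non-transgenic ones. All 6 of these markers were lower by fitted value, as were 84% of all genes. Of the 6, 5 had an unadjusted p under 0.05 by limma (16.7% of genes). The median log2 difference of these markers was -0.86 (-0.53 after median-of-ratios scaling), beside -0.30 (-0.01) for all genes. All 6 macrophage markers were lower too, 5 with an unadjusted p under 0.05, with a median of -0.91 (-0.59 after that scaling). Of 6 endothelial markers 4 were lower, with a list median of -0.54 (-0.20 after that scaling). All 6 smooth muscle, 5 of 6 cardiomyocyte and 4 of 5 melanocyte markers were lower. Their medians were -0.51, -0.75 and -0.41 (-0.21, -0.43 and -0.12 after that scaling). The part of these lists in the differences was not tested.

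**Figure D4:**
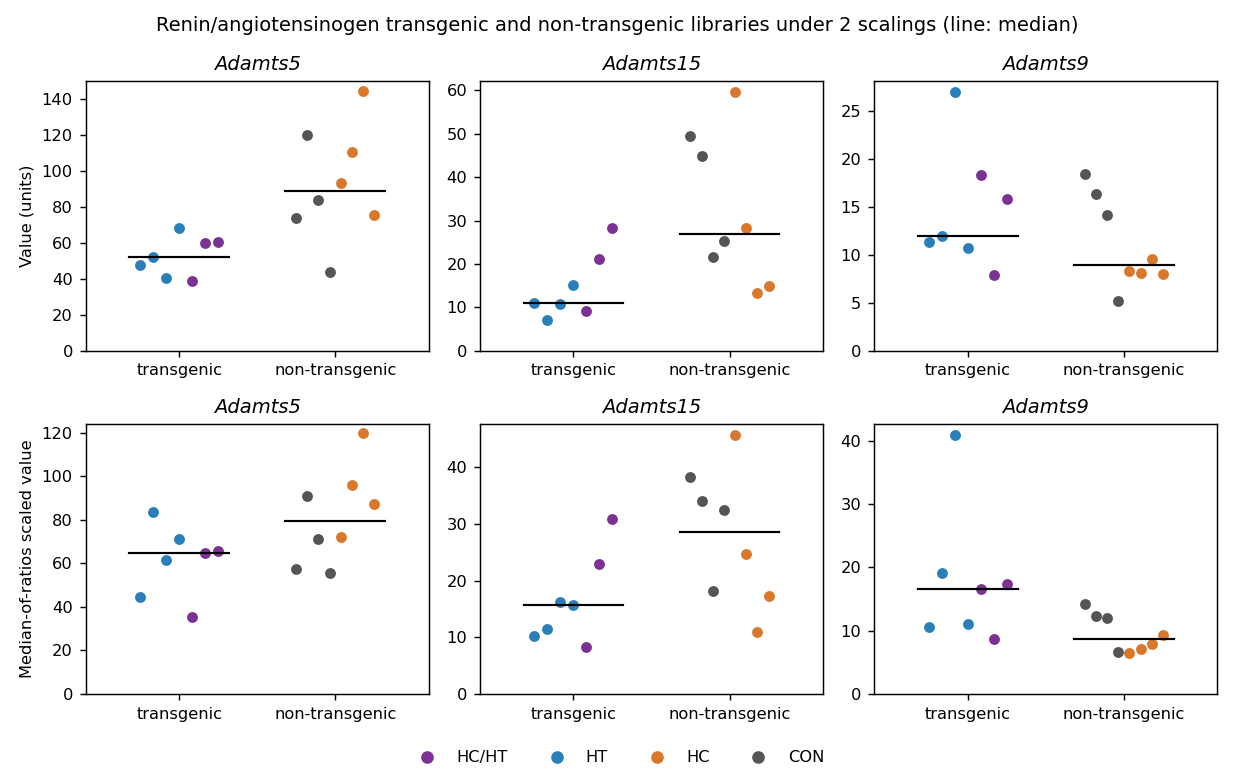
Adamts5, Adamts15 and Adamts9 in the 7 transgenic libraries (HC/HT and HT) and the 8 non-transgenic ones (HC and CON), in units above and after median-of-ratios scaling below; each point is a library and lines are medians. In units Adamts5 has medians of 52.2 and 88.8 and Adamts15 of 11.1 and 26.9, and the ranges overlap in every panel.

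Over the 15 libraries, members varied together to different degrees after median-of-ratios scaling. The highest Spearman correlations were 0.70 between Adamts10 and Adamts12, 0.62 between Adamts12 and Adamts15 and 0.61 between Adamts1 and Adamts7. Adamts2 and Adamts10 had the lowest, at -0.63. These are descriptions, since the libraries share groups, sexes and scaling. For the 3 members of highest mean value, the named genes of most similar pattern among 13036 were found by the same measure. For Adamts1 they were Pcdh12 (0.89), Apold1 (0.86) and Rnd1 (0.84). For Adamts5 they were Gart (0.89), Tbpl1 (0.84) and Akr1b10 (0.83), and for Adamts2 Dpp7 (0.93), Vps26c (0.90) and Copz1 (0.88). How high the top of 13036 correlations over 15 libraries would lie by chance was not tested, so these too are descriptions.

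Genes for the proteins that these enzymes cut did not pass either. Of 21 substrates and matrix partners listed, 19 were tested, and 0 passed an adjusted p of 0.05 in any of the 8 comparisons. In HT against CON 5 of 19 had an unadjusted p under 0.05 (12.8% of genes), with a list median of -0.35 beside -0.42 for all genes. After median-of-ratios scaling these were 3 of 19 (4.93% of genes) and a list median of 0.11 beside -0.01, so the sign of the median depended on the scaling. Vcan, which encodes versican, averaged 1652 ± 186 units in HC/HT, 1665 ± 489 in HC and 1741 ± 815 in HT, against 1703 ± 802 in CON. Acan, which encodes aggrecan, averaged 1.18 ± 0.60 units in HC/HT, 5.12 ± 2.89 in HC and 4.33 ± 2.15 in HT, against 1.30 ± 0.69 in CON. Its interaction was -2.51 ± 0.68 (SE; unadjusted p = 0.000917, adjusted p = 1.00, limma). By mean, then, Acan was higher in HC and in HT than in CON, and not in HC/HT, at levels of a few units. Col1a1 averaged 289 ± 15.0 units in HC/HT, 450 ± 192 in HC and 337 ± 137 in HT, against 400 ± 73.8 in CON. Col3a1 averaged 531 ± 335 units in HC/HT, 1148 ± 751 in HC and 327 ± 163 in HT, against 450 ± 138 in CON.

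Genes that restrain, activate or clear these proteases gave the same count. Of 15 listed, 13 were tested, and 0 passed in any of the 8 comparisons. An unadjusted p under 0.05 was found for 3 of 13 in HT against CON (12.8% of genes) and for 4 of 13 in transgenic against non-transgenic libraries (16.7% of genes). After median-of-ratios scaling it was found for 0 of 13 in both (4.93% and 9.13% of genes). In ApoE knockout against intact libraries 3 of 13 had it (9.84% of genes), and 4 after that scaling (1984 of 15004 genes). In HC/HT against CON 2 of 13 had it (11.4% of genes), and 4 after that scaling (2006 of 15004 genes). In HC/HT against HT 2 of 13 had it on both scales (8.71% of genes, and 1630 of 15004 after that scaling). Timp3, the main tissue inhibitor of the aggrecanases, averaged 1657 ± 748 units in HC/HT, 1946 ± 695 in HC and 1815 ± 1185 in HT, against 1740 ± 537 in CON. Timp1, which mainly inhibits matrix metalloproteases, averaged 182 ± 193 units in HC/HT, 119 ± 65.8 in HC and 47.0 ± 38.7 in HT, against 29.0 ± 17.5 in CON. The log2 differences of Timp1 from CON were 2.00, 1.84 and 0.48, with an adjusted p of 0.536 in HC/HT. Lrp1, a receptor that takes up ADAMTS4 and ADAMTS5 from the matrix, averaged 518 ± 15.5 units in HC/HT, 688 ± 132 in HC and 403 ± 178 in HT, against 617 ± 210 in CON. Its transgenic minus non-transgenic difference was -0.53 (adjusted p = 0.284, limma), beside -0.30 for the median gene. Furin, which removes the propeptide of many ADAMTS proteases, averaged 27.3 ± 8.94 units in HC/HT, 24.4 ± 3.08 in HC and 16.0 ± 3.64 in HT, against 20.1 ± 9.44 in CON.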

How the data were processed

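The authors deposited a score, normalised counts rounded to whole numbers, for 20992 genes; 15 named columns were used and 1 unnamed column was not. Per the submitters' processing notes, Bowtie 1.0.1 with mm10 was used, along with FastQC 0.11.2, edgeR and SAMtools 0.1.9; how the normalisation was done is not given in the sources used. Per the labels' protocols, cDNA was amplified with Nugen Ovation RNA-Seq v2. Column totals lay between 10207928 and 10210305, so depth is unknown and low values carry an unknown counting error.

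All values were multiplied by 0.0979537. The 15004 genes that reached 1 unit in 4 or more libraries were fitted as log2(value + 1) with limma 3.58.1 in R 4.3.3, in 1 fit of 15 libraries with group and sex, moderated with trend and robust settings, and Benjamini-Hochberg adjusted over all genes. Positions are RefSeq GRCm38.p6, transcript lengths GENCODE vM21. The procedure was run on simulated data with changes in HC larger than any member difference here and no shift of whole libraries. It therefore does not show how changes of the members' size fare. Alternatives varied the scaling, pseudocount, filter, sex term, replicate block, library weights, moderation and the libraries fitted. All 10 members are described, values by library are printed where groups did not overlap and for other members chosen after their values were seen, and 8 related genes are always named. The members and lists were chosen with earlier results of these data known. Same-numbered replicates were not paired by the labels, and their deviations correlated between -0.125 and 0.275. For libraries of different groups with different numbers the range was -0.264 to 0.376.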

Additional observations from a re-analysis of the deposited data

Results flagged for a closer look

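Of 30 groups of 4 libraries, 2 held a library far from the other 3 by Dixon's criterion, and chance gives about 1 in 20. Adamts3 had 7.84 units in CON replicate 4, with the other CON libraries between 3.53 and 4.21. Adamts9 had 27.0 units in HT replicate 3, with the other HT libraries between 10.7 and 11.95.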

How the results depend on the processing

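Depth is unknown, which leaves the error of low members such as Adamts4 unmeasured, and HC/HT rests on 3 libraries. Of 80 member differences, 33 exceeded their SE, and 35 changed sign under at least 1 of 27 alternatives. Most of those were smaller than their SE and are not counted as reversals, a rule set after the data were seen. Reversals beyond that were Adamts1 in HC against CON with array weights (-0.16), Adamts2 there over single libraries left out (-0.023 to 0.71, the lowest without HC replicate 2), Adamts10 in HT against CON after median-of-ratios (0.0018) and quantile scaling (0.00082), and Adamts12 in transgenic against non-transgenic libraries under both scalings (0.013 and 0.016) and without the 3 libraries that correlate least, chosen after seeing the data (0.028). Counts of members called were 0 except as follows. In HT against CON 1 passed when only the groups compared were fitted. In transgenic against non-transgenic libraries 3 passed with array weights (Adamts5 at -0.96, Adamts15 at -1.14, Adamts2 at -0.71). With single libraries left out, 2 passed without HC replicate 4, and none passed in the other such fits. With the replicate number as a block 1 passed (Adamts5, -0.82, adjusted p = 0.0296), although the numbers do not pair the samples; the block changed no other member's call. Over all genes, that comparison gave 2 calls, against 768 with the block, 2089 with array weights and 34 at an adjusted p of 0.1. The others gave 70 calls (7 to 726 over the alternatives) in HC/HT against CON, 25 (8 to 316) in HC against CON, 0 (0 to 412) in HT against CON, 0 (0 to 3) in HC/HT against HC, 56 (6 to 260) in HC/HT against HT, 220 (45 to 479) in ApoE knockout against intact and 0 throughout for the interaction. Adamts5 ranged from -0.96 to -0.44 and Adamts15 from -1.16 to -0.69 in transgenic against non-transgenic libraries, with no change of sign.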

Other observations

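Adamts8, Adamts19 and Adamts20 lie outside the 10 members and were picked once their values had been seen. Of 15 other ADAMTS and ADAMTS-like genes, 13 were tested, and 0 passed an adjusted p of 0.05 in any of the 8 comparisons by limma; 2 of 13 had an unadjusted p under 0.05 in HC/HT against CON (11.4% of genes). Adamts8, which restrains angiogenesis, had 152, 78.7 and 54.0 units in the HC/HT libraries and 60.9, 22.6, 27.9 and 38.7 in the HC libraries. It had 54.6, 30.8, 140 and 36.5 units in the HT libraries, against 46.7, 20.3, 23.3 and 2.25 in the CON libraries. The HC/HT libraries lay above the CON libraries, as for 2.89% of genes, with a log2 difference of 2.46 ± 0.88 (SE; adjusted p = 0.317, limma).

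Adamts19, whose loss is known to cause valve disease in humans and mice, had 1.57, 9.60 and 69.2 units in the HC/HT libraries and 58.2, 24.1, 27.2 and 44.2 in the HC libraries. It had 27.8, 22.5, 3.72 and 65.1 units in the HT libraries, against 40.7, 64.1, 54.8 and 33.0 in the CON libraries. The HC/HT and CON libraries overlapped, since 1 HC/HT library was the highest of all 15, and the log2 difference was -2.45 ± 0.97 (SE; adjusted p = 0.378, limma). Adamts20 had 2.74, 2.45 and 2.25 units in HC/HT, against 1.57, 1.76, 0.490 and 0.392 in CON. These did not overlap, as for 2.89% of genes with HC/HT higher, and the log2 difference was 0.91 ± 0.51 (SE; unadjusted p = 0.0852, adjusted p = 0.534, limma).

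Adamts4 had a median of 2.89 units (0.882 to 6.07) in the 8 female libraries and 0.980 (0.490 to 2.06) in the 7 male libraries. Adamts10 had a median of 53.4 units (25.7 to 69.8) in females and 70.8 (39.6 to 120) in males. The sexes are spread unevenly over the groups, and these differences were not tested.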
